A study of Mus musculus with 3 samples.

Results

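The cells described here were chosen by a transcript rule for dendritic cells in single-cell RNA-Seq libraries of fetal mouse thymus. Of 24616 barcodes, 17605 were kept because they held at least 200 genes, at least 1000 UMIs (unique molecular identifiers, each standing for 1 captured RNA molecule), under 20% mitochondrial UMIs and under 5% hemoglobin UMIs. A kept cell was a member if it had at least 1 UMI of Ptprc (the leukocyte surface protein CD45), none of Epcam (an epithelial surface protein) and under 3 summed UMIs of the complement genes C1qa, C1qb and C1qc, which mark macrophages. It also had to hold at least 3 of the 5 genes H2-Aa, H2-Eb1, Napsa, Ifi203 and Alox5ap, with H2-Aa or H2-Eb1 among them. The rule found 128 members: 51 of 5156 kept cells in the WT library, 14 of 4080 in the library labelled Tbx1neo2/neo2 and 63 of 8369 in the Foxn11089/1089 library. These are the values that chose the cells, so levels of the rule genes are a description only.

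The study asked how the cell types of the thymus are affected in mouse models with a small thymus. Thymic lobes of C57BL/6 embryos at E13-13.5 were digested with trypsin, and 1 library was made for each of 3 genotypes: wild type, homozygous for the neo2 allele of Tbx1, and homozygous for the 1089 allele of Foxn1. Tbx1 encodes a transcription factor of the pharyngeal region whose reduced dose models 22q11.2 deletion syndrome, and Foxn1 encodes the transcription factor that thymic epithelial cells need. Both alleles are carried in every cell of the embryo, the blood lineage included, and the number of embryos behind each library is not given in the sources used here. With 1 library per genotype there is no test of a genotype: ratios are given with exact 95% intervals that cover counting error only, and a difference between libraries and a difference between genotypes cannot be told apart. Levels are given throughout as CPM, the UMIs of a gene scaled to 1e+06 UMIs of the same cells. Tbx1 itself was at 1.47 CPM in the kept WT cells, 5.05 CPM in the library labelled Tbx1neo2/neo2 and 6.36 CPM in the Foxn11089/1089 library. It was thus not lower in the second library. The paper describes Tbx1 as not expressed in the embryonic thymus, so levels this low cannot check the label. Foxn1 was at 40.3, 36.8 and 90.6 CPM in the same order, and 3′ counts do not show the small deletion of the 1089 allele. The median kept cell held 14471.5, 26279.5 and 16320 UMIs in these libraries, and no member barcode was a member in a second library.

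Dendritic cells take up protein, cut it in the endosome and lysosome, and load the peptides onto MHC class II molecules for CD4 T cells. A class II molecule is a pair of an alpha and a beta chain, such as H2-Aa with H2-Ab1, that is carried to the endosome by the invariant chain Cd74 and filled there with the help of H2-DM. In the grown thymus dendritic cells present self-peptides to developing T cells, and conventional type 1, conventional type 2 and plasmacytoid kinds are told apart by their surface receptors and transcription factors.

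Class II genes share a promoter layout in which an X box, bound by the RFX complex, lies upstream of a Y box, bound by NF-Y, and the coactivator Ciita joins them. Promoters of class II genes are shown because class II transcripts both chose the members and divided them. Of 10 class II genes searched, with Cd74 and Ciita included, 7 were matched to 8 RefSeq promoters on GRCm38.p6. The letters CCAAT of the Y box on either strand (read as ATTGG on the other) were in 7 of these 8 promoters, and the X box core on either strand (AG, NN, AC, NN and ATG in one run, N being any base) was in 4. Among all 32851 RefSeq promoters of the same length, 37.4% held the Y letters, 3.09% the X letters and 1.42% both. The lines below give 100 bases of 4 promoters, from 115 to 16 bases before the start site, 5′ to 3′ on the gene's strand, with the X and Y letters in capitals; H2-Aa and H2-Eb1 are rule genes, and H2-DMb1 and H2-Ob encode chains of the helper proteins H2-DM and H2-O.
H2-Aa, chr17:34287839-34287938, minus strand: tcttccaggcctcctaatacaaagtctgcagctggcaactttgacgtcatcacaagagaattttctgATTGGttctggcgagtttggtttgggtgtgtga
H2-Eb1, chr17:34305752-34305851, plus strand: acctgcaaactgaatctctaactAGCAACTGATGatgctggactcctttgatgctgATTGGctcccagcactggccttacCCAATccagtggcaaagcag
H2-DMb1, chr17:34153076-34153175, plus strand: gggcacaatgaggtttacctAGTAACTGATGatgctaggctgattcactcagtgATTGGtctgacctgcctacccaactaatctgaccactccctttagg
H2-Ob, chr17:34238790-34238889, plus strand: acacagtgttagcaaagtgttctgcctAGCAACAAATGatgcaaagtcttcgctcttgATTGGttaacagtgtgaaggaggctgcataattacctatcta
In the last 3 the X letters lay upstream of the Y letters. H2-Aa held the Y letters and not these X letters, which says nothing of the factors that bind there.

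By the GENCODE annotation of GRCm38, H2-Aa (ENSMUSG00000036594) lies on the minus strand at chr17:34282744-34287823 and H2-Eb1 (ENSMUSG00000060586) on the plus strand at chr17:34305867-34316674, both in the MHC region. The other rule genes are Napsa (ENSMUSG00000002204, chr7:44572380-44586862), an aspartic protease, Alox5ap (ENSMUSG00000060063, chr5:149264767-149288153), which helps make leukotrienes, and Ifi203 (ENSMUSG00000039997, chr1:173920407-173942672), of the interferon-inducible p200 family. Outside the rule, the text turns most often to H2-Ab1 (ENSMUSG00000073421, chr17:34257689-34269419), next to H2-Aa, and to Cd74.

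The members fell into cells with many class II transcripts and cells with 1 or 2. Summed H2-Aa and H2-Eb1 UMIs were 10 or more in 66 members, 3 to 9 in 12 and 1 or 2 in 50, and 45 of those 50 held a single UMI. These limits were set after the values were seen. The class II-high cells, as those with 10 or more are called here, numbered 21 in the WT library, 3 in the library labelled Tbx1neo2/neo2 and 42 in the Foxn11089/1089 library. The class II-low cells, with 1 or 2, numbered 23, 10 and 17. The highest member held 87 such UMIs in the WT library, 105 in the library labelled Tbx1neo2/neo2 and 106 in the Foxn11089/1089 library.

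Class II genes that the rule did not use followed the same division. Cd74 UMIs in the 21 class II-high WT cells ran from 7 to 126 with a median of 60, and in the 42 Foxn11089/1089 cells from 24 to 165 with a median of 68.5. In the 3 class II-high cells of the library labelled Tbx1neo2/neo2 they were 28, 56 and 150. Every one of the 66 class II-high cells held both Cd74 and H2-Ab1. In the class II-low cells the median Cd74 count was 0 in the WT library, 0 in the library labelled Tbx1neo2/neo2 and 2 in the Foxn11089/1089 library. Cd74 was at 0 in 29 of these 50 cells, 25 had neither Cd74 nor H2-Ab1, and 7 reached the lowest Cd74 count of a class II-high cell. Of the 12 cells between, 8 reached it. Plbd1, a phospholipase of granules and lysosomes, was in 52 of 66 class II-high cells and 4 of 50 class II-low cells.

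A count of 1 or 2 class II UMIs was also seen in cells that do not make class II. Among Ptprc-negative, Epcam-negative cells with Pdgfra and Col1a2 UMIs, taken as fibroblasts, 2.30% of 958 held 1 or 2 in the WT library, 3.78% of 1429 in the library labelled Tbx1neo2/neo2 and 1.89% of 2438 in the Foxn11089/1089 library. None of them held 10 or more, which allows a share of up to 0.313%, 0.210% and 0.123%. Among Ptprc-positive cells that passed the C1q limit and already held 2 of the 3 other rule genes, the shares with 1 or 2 were 3.66%, 6.85% and 7.44%. Those Ptprc-positive cells were deeper, with a median of 20795, 62926 and 29232 UMIs against 9572.5, 25385 and 13766.5 in the fibroblasts. The other rule genes were common among early thymocytes (non-members with at least 2 of Cd3g, Cd3d, Cd3e and Lck): Napsa was in 71.8%, 95.5% and 98.2% of them and Alox5ap in 86.2%, 89.8% and 50.9%. The part of free RNA in counts of 1 or 2 was not tested. At the edge of the rule, 249 Ptprc-positive cells held 3 rule genes and no class II UMI, 11 held a class II gene and only 1 other, and 62 were left out by an Epcam UMI.

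The name dendritic cell was then checked against markers outside the rule. Relative to the class II-low cells, 9 of 10 tested genes of the dendritic core list were at least 2-fold higher in the class II-high cells, with a median log2 ratio of 2.91, and none was 2-fold lower. Of all 6801 genes with at least 30 UMIs, 9.01% were at least 2-fold higher and 11.6% at least 2-fold lower; 2 genes of the list had too few UMIs to be compared. Within libraries 2-fold higher levels were found for 7 of 8 core genes in the WT library and 6 of 9 in the Foxn11089/1089 library. Of all genes 7.82% and 8.54% were 2-fold higher there. A rise in this contrast was not particular to dendritic genes. Over all libraries 4 of 4 tested epithelial genes were at least 2-fold higher, and of 8 mesenchymal genes 6 were higher and 1 lower. Their lists summed to 6.31 and 3.92 times the class II-low level, against 9.92 times for the core list. Within the WT library the epithelial list was at 22.4 times and the mesenchymal list at 0.564 times (0.101 to 2.14). Within the Foxn11089/1089 library they were at 3.76 and 2.25 times. The mesenchymal rise was therefore not seen in the WT library. Macrophages (Ptprc-positive cells with 3 or more C1q UMIs) also held core genes. Of tested core genes, 4 of 9 were at least 2-fold higher in all WT members than in macrophages, and 1 lower. The counts were 4 of 9 and 2 in the library labelled Tbx1neo2/neo2, and 8 of 11 and 1 in the Foxn11089/1089 library. Of all genes compared, 15.4%, 11.2% and 8.69% were higher and 11.0%, 19.1% and 12.8% lower in the 3 libraries. The list summed to 1.47, 0.868 and 2.32 times the macrophage level, so it did not set all members apart from macrophages in every library. In the class II-high cells alone it summed to 21905, 18220 and 15785 CPM, against 5265, 3455 and 4370 CPM in macrophages. Cst3, an inhibitor of cysteine proteases, was at 8726, 9364 and 5492 CPM in the class II-high cells of the WT, Tbx1neo2/neo2 and Foxn11089/1089 libraries and at 311, 281 and 547 CPM in the class II-low cells. Flt3, the receptor on which dendritic cells and their precursors depend, was at 37.0, 139 and 44.8 CPM in the class II-high cells and was found in 5 of 21, 2 of 3 and 25 of 42 of them. The class II-low cells held it at 11.2, 22.6 and 33.2 CPM. The ratio of high to low was 3.31 (0.954 to 12.9) in the WT and 1.35 (0.725 to 2.60) in the Foxn11089/1089 library. Within each of these 2 libraries Flt3 thus did not divide the cells beyond counting error. It was higher in the class II-high cells of the library labelled Tbx1neo2/neo2, at 139 against 22.6 CPM, but only 3 cells stand behind that level. Zbtb46, a transcription factor of conventional dendritic cells, was found in 2, 1 and 9 class II-high cells, at 9.25, 15.4 and 14.5 CPM, while fibroblasts held it at 16.04, 6.83 and 9.33 CPM. The receptor gene Itgax was in 8, 2 and 17, and the nuclease gene Dnase1l3 in 1 WT cell alone.

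T lineage genes ran the other way. Of 8 tested thymocyte genes, 7 were at least 2-fold lower in the class II-high than in the class II-low cells, with 4 of 5 in the WT and 3 of 4 in the Foxn11089/1089 library alone. The exception was Cd7, a surface protein of T and other lymphoid cells, at 310, 200 and 357 CPM in the class II-high and 177, 74.7 and 187 CPM in the class II-low cells, a ratio of 2.37 over all libraries and of 1.75 and 1.91 within the WT and Foxn11089/1089 libraries. Cd3g, a chain of the T cell receptor complex, was at 134, 359 and 33.2 CPM in the class II-low cells, and in the class II-high cells it was found in 2 WT cells, 1 of which held 90.9% of its UMIs. The granule protease gene Gzma was at 1364, 2118 and 21.5 CPM in the class II-low cells. Of 15 S phase genes, 12 were at least 2-fold lower in the class II-high cells over all libraries. The count was 9 of 14 in the Foxn11089/1089 library alone, where 10.9% of all genes were 2-fold lower, and 2 of 14 in the WT library alone, which is near the 14.6% of all genes there. The name therefore rests on the 66 class II-high cells as a group, and the 50 class II-low cells are called by the rule alone. Some of the 66 do not carry the name by their own markers. In the WT library 1 held 10 Cd3g UMIs, none of Spi1, Cst3 or Plbd1, and a top doublet score. Another held 91 Ly6d and 24 Cd79a UMIs and none of Spi1. Several Foxn11089/1089 class II-high cells also had top doublet scores, and what these cells are was not tested.

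Macrophage genes were sparse in both. Apoe, a lipid carrier that macrophages make in large amounts, was at 13.9, 169 and 8.68 CPM in the class II-high cells against 7072, 13759 and 15645 CPM in macrophages (Ptprc-positive cells with 3 or more C1q UMIs), and of 14 macrophage genes 7, 8 and 6 were at 0. The list summed to 254, 1155 and 174 CPM, and at least 2 of its genes were in 6 of 21, 3 of 3 and 18 of 42 class II-high cells. The monocyte genes Lyz2 and Ly6c2 were at 539 CPM each in the library labelled Tbx1neo2/neo2, and all 35 UMIs of each came from 1 of the 3 class II-high cells. That library's class II-high levels rest on single cells throughout: 1 cell held 64.1% of its Cd74 and 1 held 77.5% of its Cst3 UMIs.

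**Figure D1:**
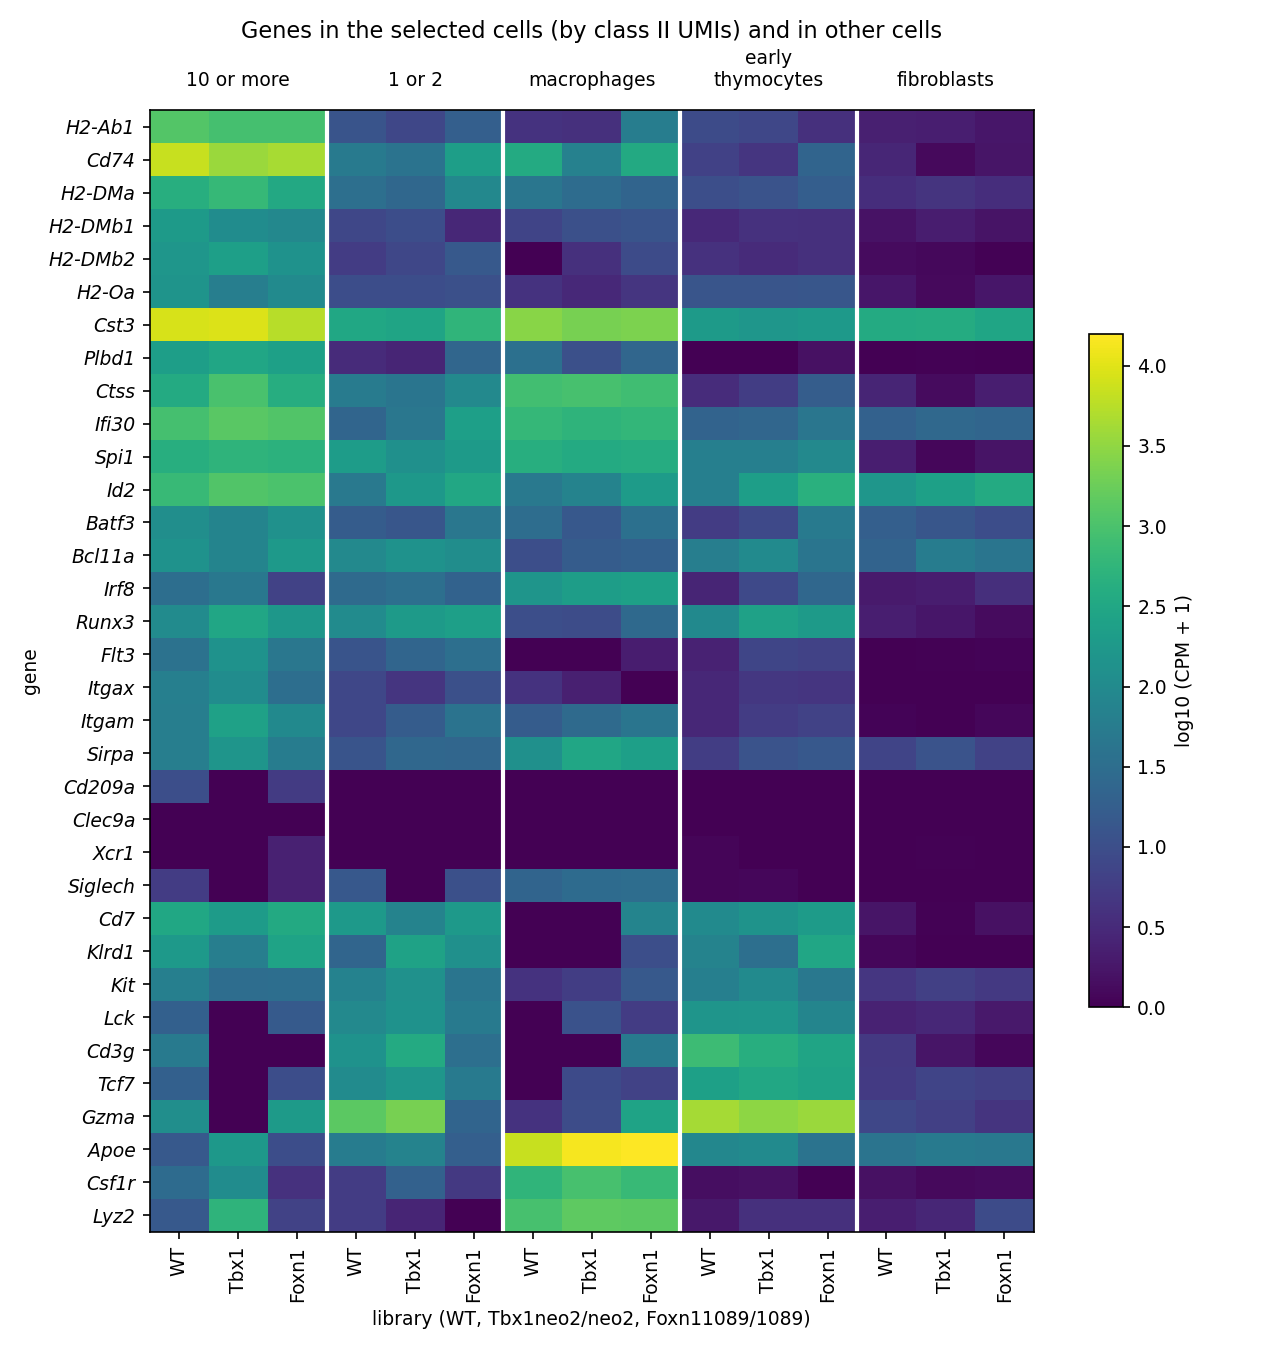
Level of class II, dendritic, T lineage and macrophage genes in CPM by class of cell and library. Cd74, H2-Ab1 and Cst3 are highest in members with 10 or more class II UMIs, and Cd3g is higher in members with 1 or 2.

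Members as a share of all kept cells were fewer in both mutant libraries than in the WT library, but the order depended on the denominator and on class II content. They made up 0.989% of kept WT cells (exact Clopper-Pearson interval 0.737 to 1.30%), 0.343% (0.188 to 0.575%) in the library labelled Tbx1neo2/neo2 and 0.753% (0.579 to 0.962%) in the Foxn11089/1089 library. The ratio to WT was 0.347 (0.177 to 0.636) and 0.761 (0.518 to 1.12), and the second interval spans 1. Of Ptprc-positive, Epcam-negative cells, of which there were 859, 224 and 316, members made up 5.94%, 6.25% and 19.9%. On that scale the ratio to WT was 1.05 (0.538 to 1.93) for the library labelled Tbx1neo2/neo2 and 3.36 (2.28 to 4.96) for the Foxn11089/1089 library. The 2 denominators moved apart with the early thymocytes, which were 6.89%, 2.16% and 0.657% of kept cells.

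The class II-high cells were 0.407%, 0.0735% and 0.502% of kept cells. Their ratio to WT was 0.181 (0.0345 to 0.605) in the library labelled Tbx1neo2/neo2 and 1.23 (0.713 to 2.19) in the Foxn11089/1089 library, and the first rests on 3 cells. Of Ptprc-positive cells the same ratios were 0.548 (0.105 to 1.83) and 5.44 (3.15 to 9.66). The class II-low share was 0.549 (0.233 to 1.20) and 0.455 (0.228 to 0.891) times the WT share of kept cells. When every kept cell was thinned to 2000 UMIs before the rule, the mean over 25 draws was 9.24 members of 4962 in the WT library, 1.56 of 3579 in the library labelled Tbx1neo2/neo2 and 23.8 of 7824 in the Foxn11089/1089 library. Thinning put the Foxn11089/1089 share at 1.63 times that of WT.

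**Figure D2:**
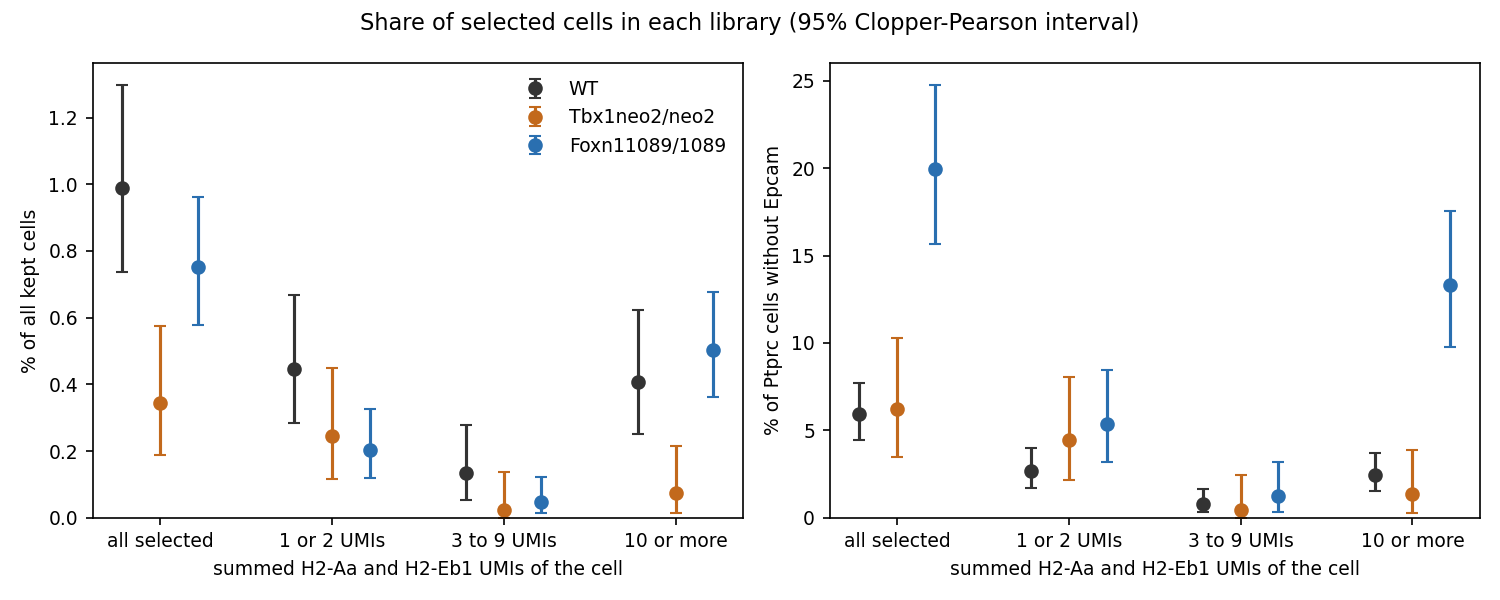
Members and their class II groups as a percent of kept cells and of Ptprc-positive, Epcam-negative cells in each library, with exact 95% counting intervals. In the Foxn11089/1089 library members are 0.753% of kept cells and 19.9% of Ptprc-positive cells.

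The class II-high cells held transcripts of most parts of the class II pathway. The invariant chain Cd74 was at 6913, 3604 and 4442 CPM in the WT, Tbx1neo2/neo2 and Foxn11089/1089 libraries, and the beta chain H2-Ab1 at 1179, 909 and 895 CPM. The peptide exchanger H2-DM was present through H2-DMa at 430, 647 and 338 CPM, H2-DMb1 at 190, 108 and 91.1 CPM and H2-DMb2 at 162, 231 and 134 CPM; the last 2 are near copies whose reads could be split between them. H2-Oa, which restrains H2-DM, was at 148, 61.6 and 101 CPM, and its partner H2-Ob was in 2, 0 and 11 cells. Ciita was found in 3, 0 and 9 cells, at 13.9 CPM and 14.5 CPM in the WT and Foxn11089/1089 libraries. The general factors of the class II promoter were low in these cells: Rfx5 was in 1, 0 and 3 of them and Nfya in 1, 1 and 4.

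Genes of the endosome and lysosome were next. Ctss, the protease that cuts the invariant chain, was at 361, 986 and 405 CPM, and Ifi30, a reductase that unfolds antigens, at 916, 1324 and 1144 CPM. Ctsh was at 171, 570 and 360 CPM. Against macrophages, 11 of 13 tested lysosomal genes were at least 2-fold lower in the members as a whole, where 9.29% of 9236 genes were at least 2-fold higher and 17% at least 2-fold lower. Ctsb and Lgmn were at 0.0285 (0.0249 to 0.0325) and 0.0228 (0.0182 to 0.0283) times the macrophage CPM. Within each library 10 to 12 of the 13 lysosomal genes were at least 2-fold lower in all members, where 11.0%, 19.1% and 12.8% of all genes were. In the class II-high cells alone the lysosomal list summed to 11588, 16880 and 8576 CPM, against 12082, 16983 and 13842 CPM in macrophages. Cst3 in all members was at 1.05, 0.540 and 1.44 times the macrophage CPM within the WT, Tbx1neo2/neo2 and Foxn11089/1089 libraries. Over all libraries 7 of 11 tested class II genes were at least 2-fold higher in the members. Cd74 was at 9.69 times (8.85 to 10.6) over all libraries and at 5.91, 6.13 and 7.37 times within them. H2-Ab1 was at 3.07, 2.76 and 58.4 CPM in the macrophages of the 3 libraries, and 2 Foxn11089/1089 macrophages held 10 or more H2-Aa and H2-Eb1 UMIs. Against early thymocytes, where 7.22% of 10807 genes were at least 2-fold higher and 5.48% at least 2-fold lower, 9 of 10 dendritic core and 9 of 13 lysosomal genes were at least 2-fold higher in the members, and 12 of 13 thymocyte genes, a list that includes those that chose the thymocytes, at least 2-fold lower.

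Among the 15 genes outside the rule that stood highest in the members over all other kept cells were Plbd1, Hfe, Bcl2a1d, Ppfia4, Kmo, Ly86, Bcl2a1b, Ctss, Ccr1, Cfp, H2-DMb2, H2-DMb1, Cd52 and Pld4. In the class II-high cells Ly86, a partner of a Toll-like receptor relative, was at 712, 508 and 414 CPM. Bcl2a1b, a survival protein of the Bcl2 family, was at 486, 246 and 654 CPM and has near copies, Bcl2a1d among them. Kmo, an enzyme of tryptophan breakdown, was at 78.6, 108 and 119 CPM and at 0, 0 and 12.6 CPM in macrophages. Hfe, a regulator of iron uptake, was at 338 CPM in the WT and 152 CPM in the Foxn11089/1089 class II-high cells, and no UMI of it was found in the 3 cells of the library labelled Tbx1neo2/neo2.

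Transcription factors of the class II-high cells combined myeloid and lymphoid names. Spi1, the factor that myeloid cells depend on, was at 425, 539 and 487 CPM and was found in 19 of 21, 3 of 3 and 41 of 42 cells. Id2, which blocks E proteins and is needed by dendritic and innate lymphoid cells, was at 666, 1124 and 1009 CPM, above the 49.1, 74.5 and 199 CPM of macrophages. Batf3, which type 1 dendritic cells need, was at 116, 77.0 and 133 CPM, Bcl11a at 139, 77.0 and 179 CPM, and Runx3 at 106, 308 and 165 CPM. Irf8, which type 1 and plasmacytoid cells need, was found in only 4, 1 and 3 cells at 32.4, 46.2 and 5.78 CPM, and macrophages held it at 150, 215 and 241 CPM. Irf4, linked with type 2 cells, was in 1, 2 and 12 cells.

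Several surface markers of dendritic cell subsets were near 0, while other genes of the same lists were present. The type 1 list summed to 376 CPM in class II-high and 97.7 CPM in class II-low cells, and the type 2 list to 424 and 110 CPM. The plasmacytoid list summed to 412 and 435 CPM. Only 5 type 1 and 6 type 2 genes of 12 each had enough UMIs to be compared, so no count over these lists is given. Batf3 is given above, and Wdfy4, which type 1 cells use to present antigen of other cells, was at 106, 323 and 146 CPM. The chemokine receptor Xcr1 was in 1 of the 66 class II-high cells and the lectin Clec9a in 0 of 66, which allows a share of up to 4.55% with a UMI. Cd209a was in 2, 0 and 2 cells, Siglech of plasmacytoid cells in 1, 0 and 1, and Clec10a in 0, 0 and 5. Wider lists did not divide the cells. At least 2 genes of the type 1 list were in 75.8% of class II-high cells, of the type 2 list in 80.3%, of the plasmacytoid list in 60.6% and of the mature list in 71.2%, so most cells passed several lists. Thinned to 2000 UMIs, the shares were 16.9%, 16.9%, 12.3% and 18.5% of 65 cells. Macrophages passed the first 3 lists in 11.1%, 24.1% and 19.4% after thinning, so those shares were at or near the level of another cell type. The mature list was passed by 3.70% of macrophages, 4.23% of early thymocytes and 9.99% of fibroblasts. Within the Foxn11089/1089 library it was passed by 21.4% of class II-high cells and 16.4% of early thymocytes, so it was not particular to the members either. No subset is named from these data.

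Receptors for growth factors set the class II-high cells apart from macrophages. Csf1r, the receptor that macrophages depend on, was at 27.7, 108 and 2.89 CPM in the class II-high cells and at 565, 929 and 680 CPM in macrophages, while Flt3 was at 0, 0 and 1.15 CPM in the latter. Il7r, a receptor chain of lymphoid precursors and of some dendritic cells, was at 55.5, 169 and 50.6 CPM and was found in 9, 2 and 21 class II-high cells, with 0, 4.14 and 3.44 CPM in macrophages. Notch1, which drives T lineage choice, was at 4.62, 15.4 and 13.01 CPM in the class II-high cells, 35.8, 95.5 and 42.9 CPM in the class II-low cells and 73.7, 106 and 36.3 CPM in early thymocytes. Notch2, which type 2 dendritic cells need, was at 190, 61.6 and 69.4 CPM, below the 335, 129 and 109 CPM of fibroblasts.

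Chemokines and sensors of microbes were mostly macrophage transcripts here. Of 11 tested chemokine genes 3 were at least 2-fold higher and 8 at least 2-fold lower in the members than in macrophages, and of 10 tested pattern receptor genes 1 was higher and 8 were lower. Cxcl10 was at 0, 46.2 and 26.0 CPM in the class II-high cells against 853, 174 and 665 CPM in macrophages, and the fractalkine receptor Cx3cr1 was at 4.62, 0 and 1.45 CPM against 341, 696 and 550 CPM. Unc93b1, which carries Toll-like receptors to the endosome, was found in 16 of 21, 3 of 3 and 37 of 42 class II-high cells at 171, 323 and 159 CPM. Tlr3, Tlr7, Tlr9 and Tlr11 were each found in 3 or fewer of the 66 cells. Of the leukotriene and prostaglandin genes, Lta4h was at 139, 231 and 116 CPM, while Alox5, the enzyme that Alox5ap serves, was in 1 class II-high cell, and Hpgds was at 46.2, 92.4 and 60.7 CPM against 285, 308 and 330 CPM in macrophages.

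The class II-low cells held other leukocyte genes in each library. The killer cell protease Gzmb was at 114, 257 and 0 CPM in them and at 395, 545 and 53.3 CPM in early thymocytes. Cpa3, a protease of mast cells and early progenitors, was at 143, 175 and 27.3 CPM in the class II-low cells, at 186, 263 and 361 CPM in early thymocytes and in 1 class II-high cell. Kit, the stem cell factor receptor, was at 71.5, 132 and 41.0 CPM in the class II-low and 64.7, 30.8 and 31.8 CPM in the class II-high cells. The 12 members with 3 to 9 class II UMIs were mixed: Cd74 ran from 1 to 39 UMIs in the 7 WT cells and was 0, 12, 18 and 23 in the 4 Foxn11089/1089 cells and 24 in the cell of the library labelled Tbx1neo2/neo2.

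A few genes pointed to single cells. Ly6d, a marker of early B and plasmacytoid lineages, had 244 UMIs in the WT members and 91, 80 and 71 of them came from 3 cells. The first of these, a class II-high cell, also held all 24 Cd79a UMIs of the WT class II-high cells. Ccl17 and Ccl22, chemokines of mature dendritic cells, and Ccr7, the receptor for migration to lymphoid tissue, were checked together, and at least 2 of these 3 genes were in 4 Foxn11089/1089 class II-high cells and in no WT or Tbx1neo2/neo2 member. Those 4 cells held 45, 87, 2 and 6 UMIs of Ccl17, then 6, 33, 1 and 0 of Ccl22 and 1, 6, 20 and 2 of Ccr7. With 21 WT class II-high cells, a count of 0 allows a share of up to 14.3%.

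Single genes of other lymphoid cells were also found in the class II-high cells. At least 2 B lineage genes were in 18.2% of them and 25.5% of macrophages, and after thinning in 3.08% and 2.78%. Klrd1, a receptor chain of natural killer cells, was in 8, 2 and 30 of them at 180, 61.6 and 273 CPM, with 0, 0 and 9.17 CPM in macrophages. Tyrobp, an adaptor that myeloid and killer cells share, was at 2414, 1324 and 1058 CPM and found in every class II-high cell. Of the monocyte and granulocyte genes, S100a8, Elane, Ms4a3, Ngp and Lcn2 were at 0 in these cells, and Plac8 was at 1665, 1032 and 927 CPM.

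The Foxn11089/1089 and WT members were compared next, in all members and in the class II-high cells, because the share of class II-high cells differed, 42 of 63 against 21 of 51. Over all members 12.4% of 5998 genes were at least 2-fold higher and 4.27% at least 2-fold lower in the Foxn11089/1089 library, and in the class II-high cells 14.6% and 4.62% of 3530. The median gene stood at a log2 ratio of 0.16 and 0.13. Median-of-ratios scaling changed the counts in all members from 743 higher and 256 lower to 565 and 405.

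Class II genes turned direction with that choice of cells. Cd74 was at 1.23 times the WT CPM (1.16 to 1.31) over all members and at 0.643 times (0.604 to 0.684) in the class II-high cells, and H2-Ab1 at 1.37 and 0.759 times (0.655 to 0.882). Cst3 went from 1.16 to 0.629 times. The class II-high cells of the Foxn11089/1089 library were the deeper ones, with a median of 13918 UMIs against 8823, and their median Cd74 count per cell, 68.5 against 60, was not lower. Gm2a, a lipid-binding protein of the lysosome, was lower by both choices, at 0.547 (0.478 to 0.626) and 0.383 (0.322 to 0.456) times, and so was Psap, a lysosomal precursor protein, at 0.589 and 0.409 times. Alox5ap, a rule gene, was at 0.480 and 0.345 times; it was also lower in macrophages, at 0.262 times, and in early thymocytes, at 0.175 times.

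Some MHC class I genes, which nucleated cells use to show peptides to CD8 T cells, were higher in the Foxn11089/1089 class II-high cells. Of 12 tested, 4 were at least 2-fold higher and none 2-fold lower, against 14.6% and 4.62% of all genes, and the list summed to 1.35 times the WT CPM (1.23 to 1.49). The heavy chain H2-K1 was at 116 CPM in the WT, 662 CPM in the Tbx1neo2/neo2 and 314 CPM in the Foxn11089/1089 library, a ratio of 2.71 (1.79 to 4.29) for the last to WT. H2-D1 was at 153, 662 and 327 CPM, a ratio of 2.14 (1.48 to 3.19), and the light chain B2m at 527, 1556 and 742 CPM, a ratio of 1.41 (1.15 to 1.74). The chaperone Calr was at 2.40 times (1.71 to 3.46). The immunoproteasome genes Psmb8, Psmb9 and Psmb10 were at 0.883, 1.08 and 0.917 times with intervals that span 1. Outside the members, 6 of 13 class I genes were at least 2-fold higher and none lower in Foxn11089/1089 early thymocytes, while in macrophages 1 of 11 was higher and 3 were lower. Of all genes compared, 9.69% were higher and 6.51% lower in early thymocytes, and 17.1% higher and 4.09% lower in macrophages. H2-K1 was at 3.46 times in early thymocytes and at 1.20 times in macrophages, where its interval spans 1.

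Of the interferon-inducible p200 genes, Ifi203 and Mndal differed between the libraries. Ifi203, a rule gene whose level is a description only, was at 0 to 5 UMIs with a median of 1 in the 21 class II-high WT cells, at 9, 19 and 26 in the 3 cells of the library labelled Tbx1neo2/neo2, and at 0 to 41 with a median of 11.5 in the 42 Foxn11089/1089 cells, 32 of which lay above every WT cell. Its ratio to WT was 6.13 (4.14 to 9.48). Mndal, its neighbour in the family and not used by the rule, was at 213, 246 and 761 CPM, a ratio of 3.58 (2.64 to 4.94), and 28 of 42 Foxn11089/1089 cells lay above every WT cell. Both were also higher in Foxn11089/1089 early thymocytes, at 6.17 and 4.43 times, and in macrophages they were at 1.83 and 1.27 times with intervals that span 1. Reads of this family can be shared between near-identical copies. Aim2 was at 0.967 times and Ifi205 at 1.09 times with intervals that span 1, and Ifi204 was at 0 in both libraries. Genes of the wider interferon response did not follow: none of 4 tested was at least 2-fold higher, and Ifitm3 was at 0.441 times (0.327 to 0.597).

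**Figure D3:**
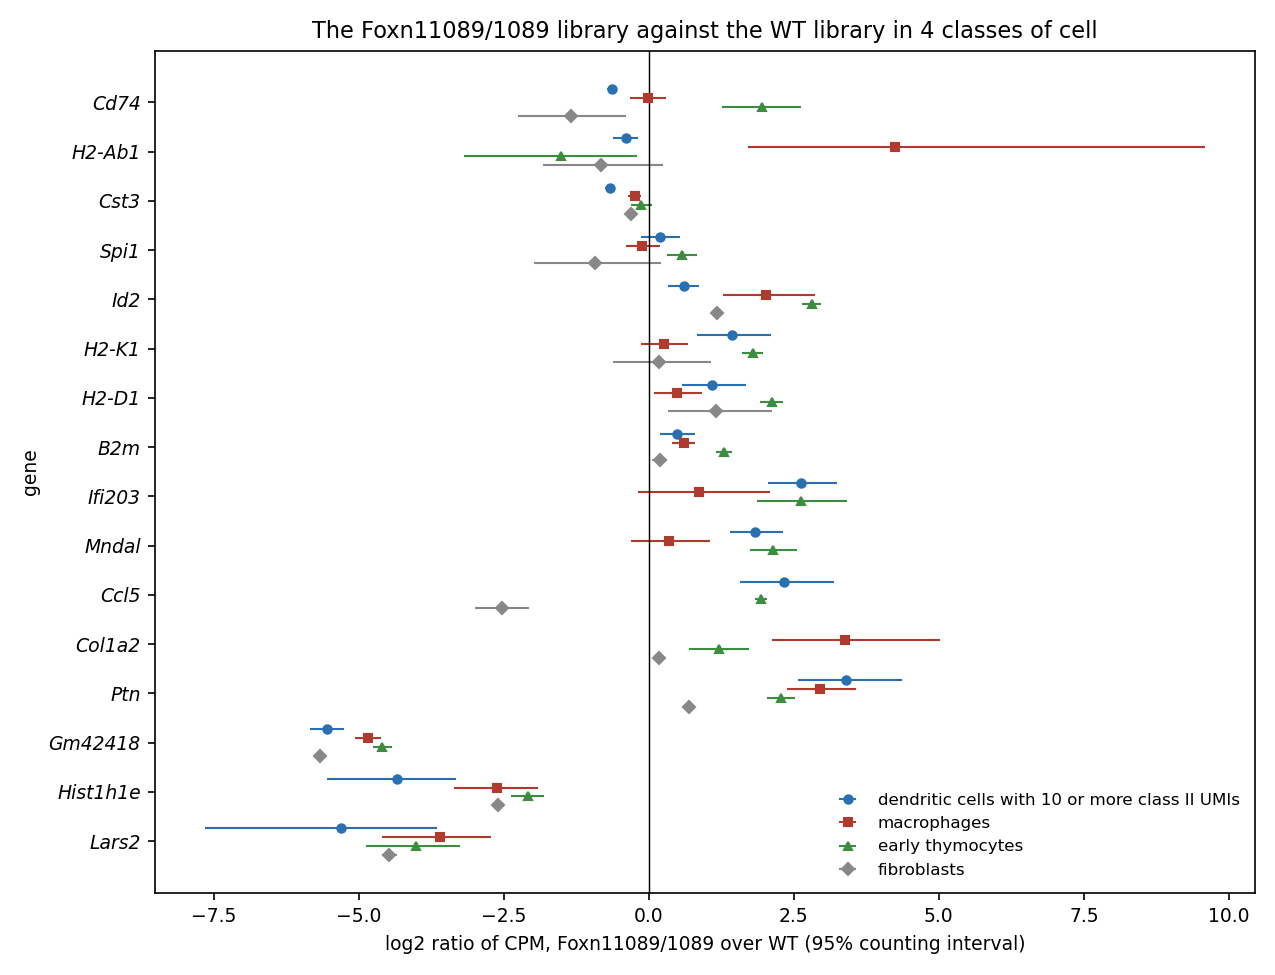
Log2 ratio of CPM, Foxn11089/1089 over WT, for named genes in 4 classes of cell, with 95% counting intervals. Points are left out where a gene had under 30 UMIs or none on one side, and Ifi203, Mndal and H2-K1 lie right of 0 in the class II-high cells while Gm42418, Hist1h1e and Lars2 lie left of 0 in every class.

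The costimulatory ligand Cd86, the chemokine receptor Ccr2 and the chemokine Ccl5 were each at over 2 times the WT level in the Foxn11089/1089 class II-high cells and are named after their values were seen. Cd86 was in 4 of 21 WT and 31 of 42 Foxn11089/1089 cells, at 5.08 times the WT CPM (1.89 to 19.2). Ccr2 was at 32.4, 231 and 130 CPM, a ratio of 4.02 (1.87 to 10.3). Ccl5 was at 69.4, 0 and 348 CPM, a ratio of 5.02 (2.99 to 9.12), and 1 Foxn11089/1089 cell held 36.5% of its UMIs. Of the mature list, Relb was at 27.7, 15.4 and 66.5 CPM and Fscn1 at 60.1, 15.4 and 132 CPM; most genes of that list had so few UMIs in the WT class II-high cells that they were compared only through the Foxn11089/1089 cells, and no count over the list is given. The Foxn11089/1089 cells were deeper, and the part of depth in the counts of cells was not tested.

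The genes with the largest ratios over all members were shared with other cells or came from few cells. Named by size alone, AW112010, Cdkn1c, Col1a2, Ptn and Ccl5 were the highest in the Foxn11089/1089 members and Gm42418, Hist1h3e, Ly6d, Hist1h1a and Lars2 the lowest. AW112010 had 335 UMIs in 3 Foxn11089/1089 class II-high cells, of which 333 were in 1, and none in WT ones, and over all members its log2 ratio turned to -2.42 when members with at least 2 T cell genes were left out. Col1a2, Ptn and Cdkn1c are abundant in fibroblasts, at 1044, 5575 and 2394 CPM in that library, and the log2 ratio of Col1a2 turned to -0.50 when barcodes with the highest doublet scores, 2 WT and 9 Foxn11089/1089 members among them, were left out. The mesenchymal list summed to 18.4, 62.8 and 697 CPM in the members, Pdgfra, Twist1, Prrx1 and Dlk1 were at 0 in the WT members, and 28.6% of Foxn11089/1089 class II-high cells held at least 2 of its genes against none of 21 in the WT library. The epithelial list ran the other way at 370, 80.8 and 71.1 CPM, and 91.7% of the Krt18 UMIs of the WT class II-high cells were in 1 cell. The endothelial list summed to 34.2 and 61.4 CPM in the WT and Foxn11089/1089 members. The red blood cell list summed to 1297, 377 and 1380 CPM in the members. Its Foxn11089/1089 to WT ratio there was 1.06 (0.983 to 1.15). In the class II-high cells alone it summed to 264, 185 and 1384 CPM. The parts of these other cells in the ratios were not tested. Gm42418, a transcript that lies over ribosomal RNA sequence, was at 7070, 370 and 152 CPM in the class II-high cells and at 11784, 276 and 231 CPM in fibroblasts, so its difference was not particular to the members, and Hist1h1e and Lars2 were likewise lower in the other classes.

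The library labelled Tbx1neo2/neo2 gave 14 members, 10 of them class II-low, so its ratios to WT describe mostly those. Of 5034 genes 13.5% were at least 2-fold higher and 4.57% at least 2-fold lower than in the WT members, with a median log2 ratio of 0.19, and median-of-ratios scaling changed 681 higher and 230 lower to 440 and 399. The highest by size were Dqx1 at 7.75 times (4.56 to 14.0), Ccl5 at 7.42 times and Cd163l1, a scavenger receptor of gamma-delta T cells, at 7.31 times. Of their UMIs in these members 1 cell held 36.7%, 82.7% and 65.6%, and none of the 3 genes had a UMI in the 3 class II-high cells. The lowest were Gm42418, Hist1h3e and Hist1h1e at 0.0350, 0.0578 and 0.0773 times. H2-K1 was at 3.22 times (2.35 to 4.48), and Cd74 was at 0.198 times (0.173 to 0.225) where 3 of 14 members against 21 of 51 were class II-high. Ifi203 was at 3.57 times (2.44 to 5.31), which is a description only because it is a rule gene. The Foxn11089/1089 and Tbx1neo2/neo2 ratios share the WT members.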

How the data were processed

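One 3′ single-cell library was made for each genotype. The deposited values are raw counts (UMIs per gene and barcode), which the authors made with Cell Ranger 3.0.0 on mm10 according to the submitters' processing notes, which also name Seurat. Each matrix covered 27998 genes.

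Class levels were computed as summed UMIs per 1e+06 summed UMIs (CPM). Ratios between classes or libraries carry conditional binomial 95% intervals and shares carry Clopper-Pearson intervals; both cover counting error only. A gene needed at least 30 UMIs in both classes together to be compared, and a ratio of at least 2 in either direction was counted. No p-value was computed, since each genotype had 1 library and cells are not replicates, and since the rule chose members by expression. A count of 0 was read as up to 3 counts. Members and gene lists (28 lists, 317 of 330 genes in the files) were chosen with earlier results of these data known, and the limits on class II UMIs after values were seen. The text names the rule genes, the genes of the lists, the 15 genes highest in members over all other kept cells (1 of which is not reported here), and the 5 highest and 5 lowest (Foxn11089/1089) or 3 and 3 (Tbx1neo2/neo2) of those with at least 100 UMIs against WT; genes carried by single cells were singled out after their values were seen. Doublet scores came from Scrublet in scanpy 1.11.5 (top 0.8% for each 1000 barcodes); no barcode was removed for its score except in an alternative. For shares of cells with a gene, cells were thinned to 2000 UMIs. Libraries shared 17 to 28 barcodes a pair. Python 3.11.15, numpy 2.4.6, scipy 1.17.1, pandas 2.3.3 and matplotlib 3.10.9 were used, and the ratio step was tested on simulated data. Alternatives were other limits on UMIs, mitochondrial and hemoglobin shares, C1q and class II, other rule genes, another denominator and scaling, and leaving out each library. Of barcodes that failed the limits on cells, 7 met the rest of the rule and were left out.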

Additional observations from a re-analysis of the deposited data

Results flagged for a closer look

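Of the genes that the text names, 3 lay on opposite sides of another class of cell in the WT and Foxn11089/1089 libraries, each with a counting interval that does not reach a ratio of 1. Bcl2a1d, a survival gene with near copies that can share its reads, had a log2 ratio of members over macrophages of -1.31 in the WT library and 1.19 in the Foxn11089/1089 library. The long non-coding gene AW112010 had a log2 ratio of members over early thymocytes of -1.33 in the WT library and 0.62 in the Foxn11089/1089 library, where 1 cell held 74.3% of its UMIs in members. Cdkn1c, a cell cycle inhibitor that is abundant in fibroblasts, had a log2 ratio of members over early thymocytes of -2.69 in the WT library and 0.72 in the Foxn11089/1089 library. With 1 library of each genotype the difference between libraries was not tested for any of them.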

How the results depend on the processing

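Of the values that answer a comparison, 184 kept their direction and size under the alternatives, 41 moved and 1 reversed. Of the log2 ratios, for single genes and for 7 summed class II genes, 211 kept, 49 moved and 3 reversed. The log2 ratio of the summed class II genes kept in 8 of 15 alternatives over macrophages, 9 of 15 over early thymocytes and 7 of 15 over fibroblasts. It ran from 2.88 to 4.65, 5.52 to 7.30 and 8.10 to 10.1. In all of these the cause was not tested. With Ptprc-positive cells as the denominator the Foxn11089/1089 to WT share ratio was 3.36 and the Tbx1neo2/neo2 ratio turned to 1.05. Over kept cells, thinning before the rule put the Foxn11089/1089 ratio at 1.63, and requiring 10 class II UMIs put it at 1.23. Col1a2 turned to -0.50 (log2, Foxn11089/1089 over WT) without high doublet scores, AW112010 to -2.42 without members that held 2 T cell genes, and Ccl5 to -0.59 (Tbx1neo2/neo2 over WT) in class II-high cells, with 0 UMIs taken as 3.

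Genes at least 2-fold apart were also counted again. With 4 rule genes required, 961 were lower than in early thymocytes, and 67.0% and 73.6% of members held 2 type 1 and type 2 genes. Without members with 2 T cell genes, 429 were higher in Tbx1neo2/neo2 over WT and 907 lower than in thymocytes. At 3 or more class II UMIs, 248 were higher in Tbx1neo2/neo2 over WT, 552 higher than in macrophages, and 1244 higher and 1504 lower than in thymocytes, and the type 1, type 2 and plasmacytoid shares were 70.5%, 75.6% and 57.7%. At 10 or more, 163 were lower in Foxn11089/1089 over WT, 158 higher in Tbx1neo2/neo2 over WT, 512 higher than in macrophages, and 1275 higher and 1777 lower than in thymocytes, and the shares, with the mature list, were 75.8%, 80.3%, 60.6% and 71.2%. Median-of-ratios scaling gave 405 lower in Foxn11089/1089 and 440 higher and 399 lower in Tbx1neo2/neo2. The mean of cell CPM gave 976 lower than in thymocytes. A minimum of 100 UMIs gave 210 higher and 109 lower in Foxn11089/1089 and 154 and 102 in Tbx1neo2/neo2. Members thinned to 2000 UMIs held 2 genes in 9.52% (type 1), 12.7% (type 2), 12.7% (plasmacytoid) and 10.3% (mature). Leaving out 1 library, these shares ran from 44.6% to 72.7% for type 1, 53.8% to 72.7% for type 2 and 53.8% to 74.0% for mature genes, and genes higher than in thymocytes from 471, without the Foxn11089/1089 library, to 857. No paired analysis was possible because each genotype had 1 library. Depth limits what 1 or 2 class II UMIs can show, since class II-low cells were the deeper cells in every library.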
